A study of Arabidopsis thaliana with 6 samples.

Results

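The transcript hierarchy of wild-type Arabidopsis thaliana roots was described from 3 libraries out of the 6 in the series, chosen by their genotype label alone. All 3 were Col wild type, received no treatment and came from plants raised for 18 days on 1/2 MS plates at 22 °C in constant light. Each library was made from total RNA of the top 2 cm of the primary root, pooled over at least 40 plants, and the labels describe the pools as biological replicates. They are called WT 1, WT 2 and WT 3, and no mutant library was used. The libraries WT 1, WT 2 and WT 3 held 51770078, 26856622 and 19446419 counts over 32833 gene IDs, so WT 1 was the deepest and WT 3 the shallowest. Levels are given as CPM, the counts of a gene scaled to 1000000 counts of its library, which is the gene's share of the library. TPM also divides by the annotated exon length, so a rank by CPM is a rank by share of the counts and levels per transcript are set against each other as TPM.

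The upper part of a root of this age carries secondary tissues. A cambium adds xylem inwards and phloem outwards, and the outer cell layers are replaced by a suberised cork layer, the phellem. Roots of the cabbage family also build ER bodies, swollen parts of the endoplasmic reticulum packed with beta-glucosidases that split defence glucosides once a cell is broken, and these enzymes clump together with jacalin-related lectins from the same tissue.

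The markers of this tissue were present. The 6 phellem and suberised endodermis markers (GPAT5, ASFT, FAR4, CYP86A1, CYP86B1 and FACT, enzymes that make and join suberin monomers) summed to 844, 816 and 832 CPM in WT 1, WT 2 and WT 3. Markers of xylem and fibre summed to 180 ± 17.0 CPM, those of phloem to 143 ± 9.33 CPM and those of the cambium to 120 ± 6.97 CPM (SD, n = 3 each). Casparian strip markers summed to 182 ± 14.1 CPM, of which ESB1, a dirigent-type protein, gave 0.808 ± 0.102 CPM, but 84.3% of its exon bases lie under AT2G28671, so this value is uncertain. Root hair markers summed to 82.7 ± 8.55 CPM. Root cap markers summed to 9.85 ± 0.0867 CPM and root tip meristem markers to 11.7 ± 1.39 CPM. The 4 seed and pollen markers summed to 0.148 ± 0.0452 CPM, and the storage globulin gene CRA1 had no count in any pool, which allows up to 0.154 CPM in WT 3. The 5 green shoot markers, none of them at 0, summed to 2200, 2314 and 1459 CPM in WT 1, WT 2 and WT 3. CAB1 alone gave 1648, 1756 and 1091 CPM of these sums. In pooled tissue, fewer cells of a type and less RNA per cell cannot be told apart.

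The counts were spread over many genes with no single dominant transcript. The 10 most abundant genes held 5.37 ± 0.266% of the counts, the first 100 held 17.59 ± 0.480% and the first 1000 held 43.8 ± 0.765% (SD, n = 3 each). It took 1449 genes in WT 1, 1368 in WT 2 and 1480 in WT 3 to reach 50% of the counts. It took 8820, 8722 and 8879 genes to reach 90%. A mean of at least 1 CPM was found for 19158 genes and of at least 1000 CPM for 66, while 8231 IDs had no count in any pool. On the per-length TPM scale the first 10 genes held 6.64 ± 0.363%, and the order of the 100 most abundant genes changed in part, since 77 of them were also among the 100 highest by TPM.

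**Figure D1:**
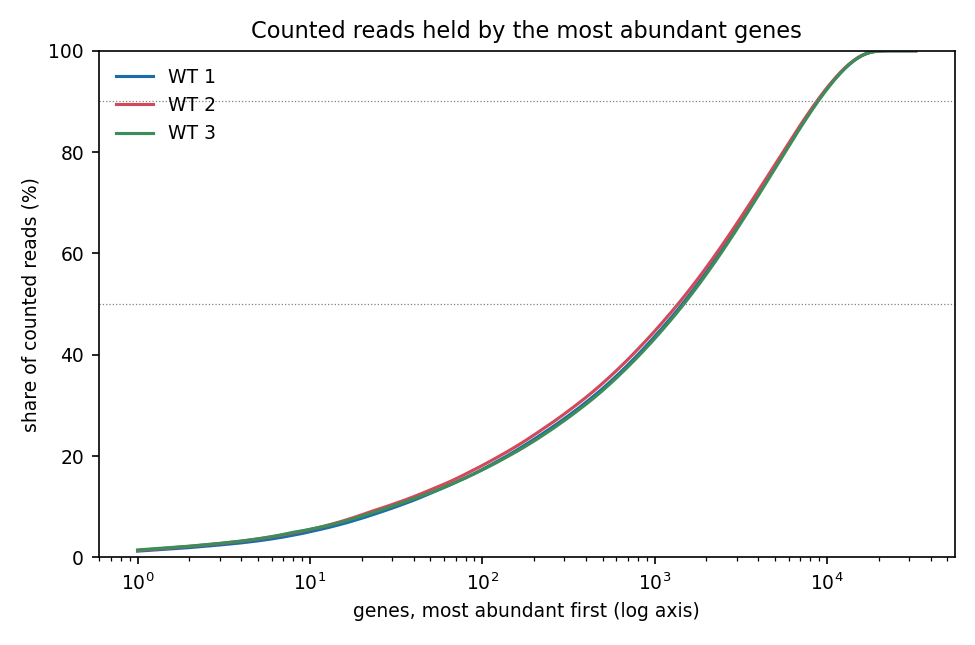
Cumulative share of counted reads (y axis, %) against the number of genes taken in order of abundance (x axis, log scale), 1 line for each of the 3 wild-type pools; dotted lines mark 50% and 90%. The 3 lines nearly coincide, and 1368 to 1480 genes hold 50% of the counts.

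PYK10 (AT3G09260, also called BGLU23, the main beta-glucosidase of root ER bodies) stood first on both scales. It had 12482, 13638 and 14793 CPM in WT 1, WT 2 and WT 3, with a mean of 1.36% of all counts. WT 3 was the highest and WT 1 the lowest, and the highest was 1.19-fold the lowest. On the TPM scale PYK10 stood at 12723 ± 1071 (SD, n = 3). The gene lies on the minus strand at chr3:2840477-2843781 (TAIR10.1), and its exons overlap those of AT3G09250.

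DR4 (AT1G73330, a Kunitz-type protease inhibitor gene named drought-repressed 4, chr1:27568714-27569823, minus strand) was second on both scales. Its levels were 6947, 8207 and 7445 CPM in WT 1, WT 2 and WT 3, and 11427 ± 795 TPM over the 3 pools (SD, n = 3). The mean per-length levels of DR4 and PYK10 differed by less than their summed SDs, whereas by CPM the pools of PYK10 all lay above those of DR4. Within each library PYK10 also lay above DR4 per length, most narrowly in WT 2. Their annotated exon lengths were 1806 bases for PYK10 and 1110 bases for DR4.

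The next places by read share were taken by a protease, lectins and proteins of the major latex protein family, small proteins with a hydrophobic pocket. AT4G11320, a papain-type cysteine protease, had 5179, 5564 and 5498 CPM in WT 1, WT 2 and WT 3. The major latex protein genes AT4G23670, MLP34 and MLP328 averaged 4480 ± 265, 3972 ± 362 and 3966 ± 407 CPM (SD, n = 3 each). By TPM MLP328 held rank 3 of all genes with 7468 ± 791, AT4G23670 rank 4 with 6732 ± 330 and the glycine-rich protein gene GRP9 rank 5 with 5972 ± 772. All 3 exceeded AT4G11320, at 3901 ± 112 TPM, by more than the SDs, so this protease dropped to rank 10 on that scale. TCTP, a translationally controlled protein of growing cells, ranked 21 by CPM but 9 by TPM, at 4028 ± 158 TPM.

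**Figure D2:**
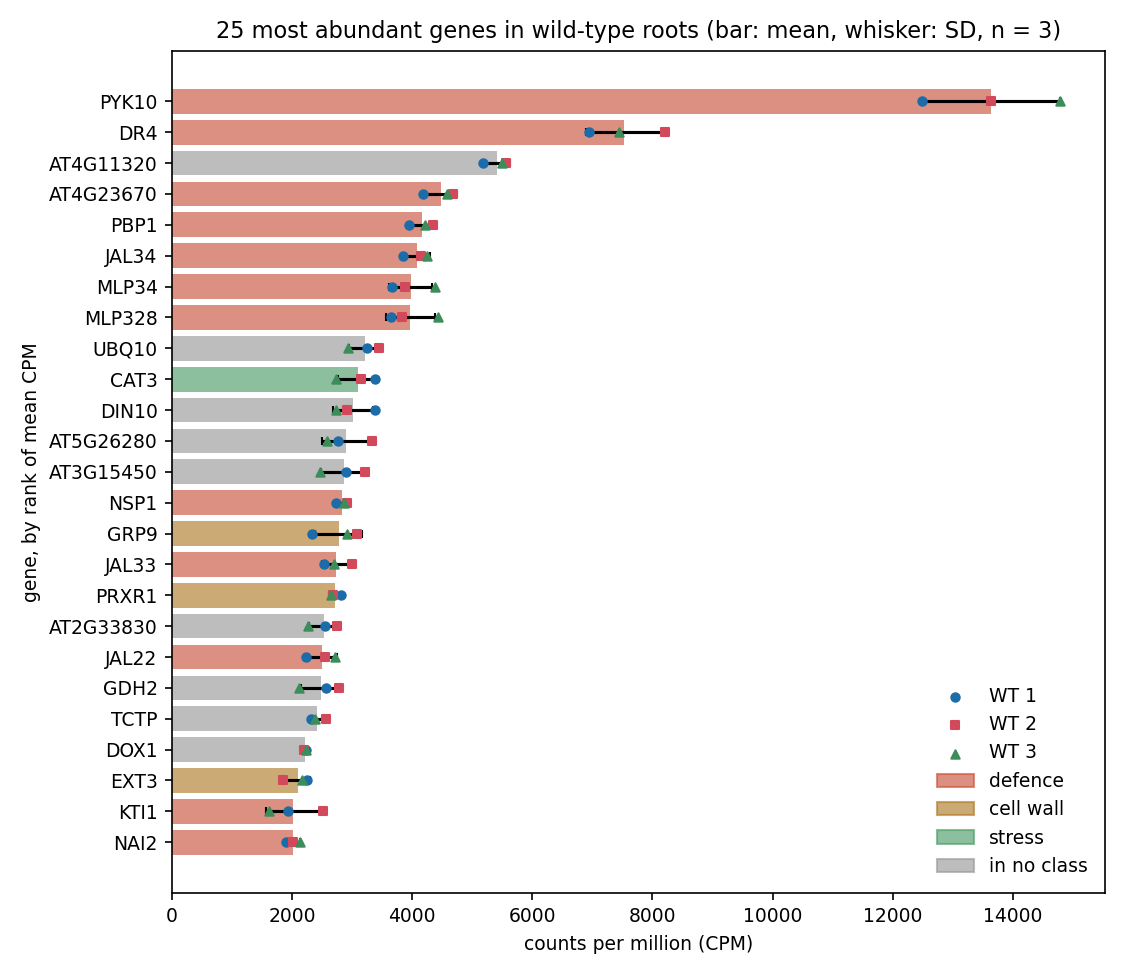
CPM (x axis) of the 25 genes with the highest mean CPM (y axis, by rank), with bars for the mean, whiskers for the SD of 3 wild-type pools, points for the pools and bar colours for the function class. PYK10 extends to 14793 CPM in WT 3 and the other genes reach at most 8207 CPM, the value of DR4 in WT 2.

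Of the 25 most abundant genes, several are not part of any of the 5 function classes used below. UBQ10, which encodes polyubiquitin, had 3242, 3452 and 2926 CPM in WT 1, WT 2 and WT 3. DIN10, a raffinose synthase family gene known to be induced in the dark, had 3381, 2914 and 2734 CPM. AT3G15450, an aluminium-induced family gene, had 2895, 3218 and 2459 CPM, and the dormancy and auxin associated gene AT2G33830 had 2551, 2751 and 2266 CPM. GDH2, a mitochondrial glutamate dehydrogenase, had 2570, 2779 and 2105 CPM. WT 3 was the lowest pool for each of these 5 genes. AT5G26280, a TRAF-like gene, was lowest in WT 3 as well, with 2766, 3326 and 2575 CPM in WT 1, WT 2 and WT 3.

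The 2 extremes of steadiness among these 25 genes were DOX1 and KTI1. DOX1, an alpha-dioxygenase that starts the oxidation of fatty acids, had 2224, 2195 and 2235 CPM in WT 1, WT 2 and WT 3, a coefficient of variation of 0.941%. KTI1, a Kunitz trypsin inhibitor, had 1928, 2513 and 1613 CPM, a coefficient of variation of 22.6%. Its highest pool was 1.56-fold its lowest (95% counting interval 1.54 to 1.58). No other gene of the 25 reached 1.4-fold.

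Part of the hierarchy lay close together in the genome. On chromosome 3, between positions 5566083 and 5599224 of TAIR10.1, NSP1, PBP1, JAL33, JAL34 and JR1 stood within a few genes of each other, all 5 among the 100 most abundant. Together they held 1.399, 1.548 and 1.497% of the counts in WT 1, WT 2 and WT 3. NSP1 encodes nitrile specifier protein 1, which steers glucosinolate breakdown towards nitriles, and PBP1 (AT3G16420) is a lectin that binds PYK10. JAL33, JAL34 and JR1 (JAL35) are jacalin-related lectins too. Pairs in the top 100 that lay close together were MLP328 with MLP329 (0.553% of the counts), the glutathione transferase genes GSTF9 with GSTF10 (0.216%), and ALP with the elongation factor gene AT5G60390 (0.187%). In all, 11 of the 100 most abundant genes stood in such groups, taken as at most 5 places apart in gene order.

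To show what stands directly before the start of the most abundant genes, 80 bases are given for 5 of the first 8. They precede the 5′ end of the longest annotated transcript and are read from TAIR10.1 on the gene's strand, 5′ to 3′. Capitals mark TATAAA, the core of the TATA box, where its first base lay 50 to 20 bases before that end. The 5 include every gene of the first 8 with these letters there. AT4G23670, JAL34 and MLP34, which are not shown, had none, and neither did UBQ10, next in rank. The window of CAT3, after it, starts at position 7143053, inside a gene annotated from 7142972. It therefore does not show what precedes CAT3.
PYK10: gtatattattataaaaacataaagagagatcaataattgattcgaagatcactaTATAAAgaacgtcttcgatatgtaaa
DR4: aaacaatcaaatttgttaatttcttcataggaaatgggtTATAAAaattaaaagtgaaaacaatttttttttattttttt
MLP328: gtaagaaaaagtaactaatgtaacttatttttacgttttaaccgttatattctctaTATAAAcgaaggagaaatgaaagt
AT4G11320: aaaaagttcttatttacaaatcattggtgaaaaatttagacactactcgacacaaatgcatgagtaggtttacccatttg
PBP1: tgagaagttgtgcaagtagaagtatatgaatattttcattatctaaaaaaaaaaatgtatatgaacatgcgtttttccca
These windows lie at chr3:2843782-2843861 for PYK10 (minus strand), chr1:27569824-27569903 for DR4 (minus), chr2:235845-235924 for MLP328 (plus), chr4:6887086-6887165 for AT4G11320 (plus) and chr3:5579210-5579289 for PBP1 (plus). Only the gene's own strand was searched. TATAAA stood at that place before 4 of the 25 most abundant genes (16%) and 10 of 98 protein-coding genes in the top 100 (10.2%). It stood there before 2456 of all 27443 protein-coding genes (8.95%) and before 1260 of 15692 with a mean of at least 5 CPM (8.03%). The share in the top 100 was thus close to that of all genes, and a match in such a window is a string of letters, not a shown binding site.

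Functions were assigned by the annotated names of the genes, with each gene in 1 class. Defence held 7.451, 8.032 and 7.999% of the counts in WT 1, WT 2 and WT 3 over 870 genes. The cell wall class held 5.92, 5.71 and 5.58% over 982 genes. Transport held 4.98, 4.81 and 4.89% over 1043 genes. Stress held 4.45, 4.75 and 4.49% over 699 genes, and barrier functions 0.640, 0.626 and 0.613% over 220 genes. The order of the 5 classes was the same in every pool, and the gap between neighbouring classes exceeded the range of either over the pools except between transport and stress, where the closest pair of values was 4.81% for transport and 4.75% for stress in WT 2. The 5 classes together held 23.64 ± 0.257% (SD, n = 3), so most counts belonged to genes outside them. By TPM the shares were 8.84% for defence, 5.92% for cell wall, 5.25% for stress, 4.07% for transport and 0.811% for barrier functions, so stress and transport changed places.

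**Figure D3:**
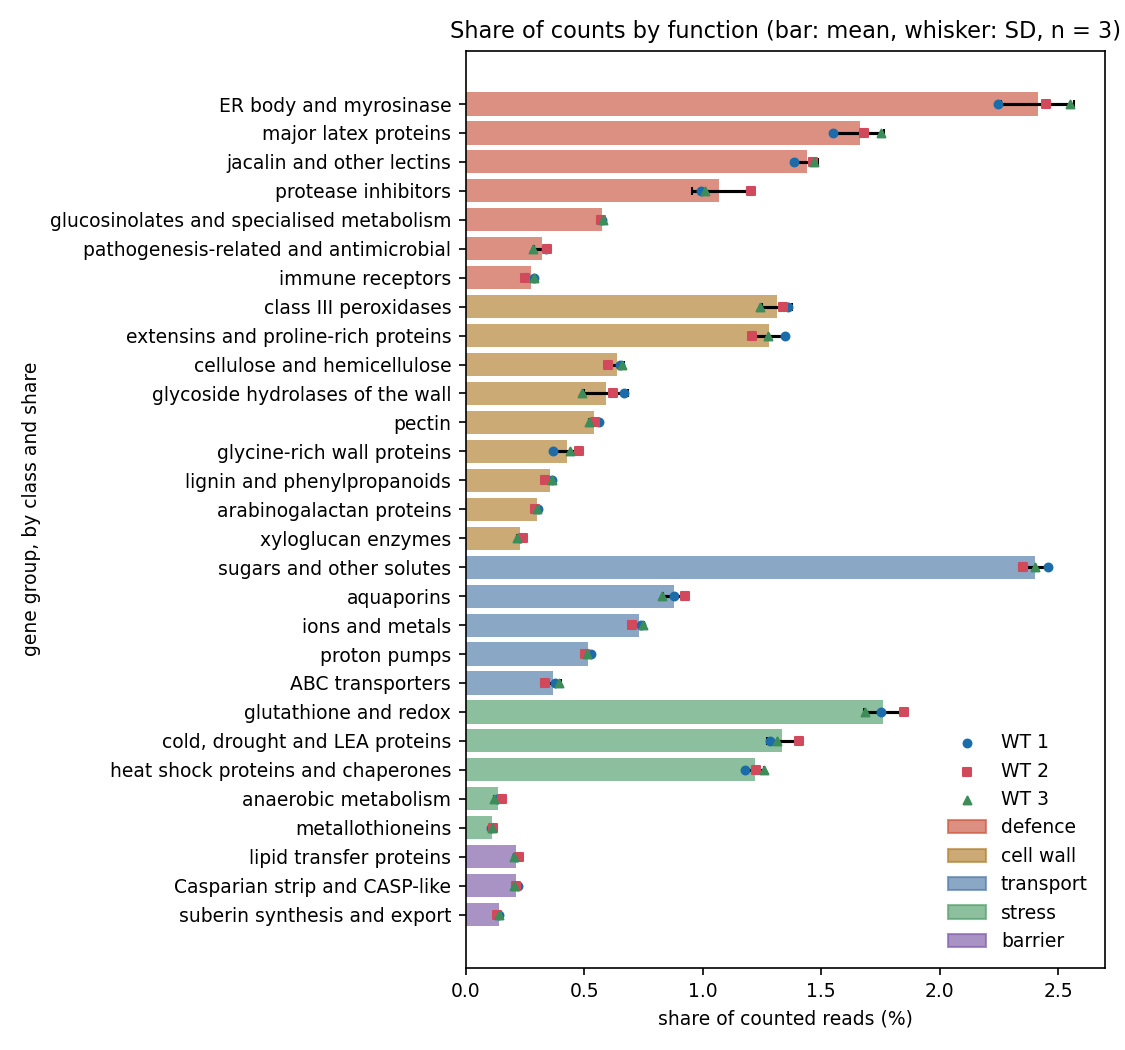
Share of counted reads (x axis, %) of the gene groups with a mean of at least 0.1%, ordered by class and share (y axis); bars give the mean, whiskers the SD of 3 wild-type pools and points the pools. ER body and myrosinase genes (2.41%) and sugar and other solute transporters (2.40%) lead.

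Defence was the most concentrated class. PYK10 alone made up 17.42% of its counts, the first 6 genes made up 48.4%, and 7 genes held more than all the others together. For comparison, reaching 50% took 24 genes in the cell wall class, 51 in transport, 13 in barrier functions and 29 in stress. Within defence, ER body and myrosinase genes held 2.41 ± 0.154% of all counts, major latex proteins 1.66 ± 0.102%, jacalin and other lectins 1.44 ± 0.0474% and protease inhibitors 1.07 ± 0.116% (SD, n = 3 each). The 211 immune receptor genes, the intracellular and surface proteins that detect microbes, together held 0.274 ± 0.0228%. Chitinases and glucanases, which cut fungal walls, held 0.0718 ± 0.00234%. The placing of major latex proteins and lectins under defence follows their families and does not show that they act in defence here.

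The ER body list shows how deep this system ran. Its 19 genes summed to 29970, 33080 and 34000 CPM in WT 1, WT 2 and WT 3, a mean of 3.235% of the counts. Besides PYK10 it contained the sister glucosidases BGLU21, at 327.9 ± 16.03 CPM, and BGLU22, at 533 ± 67.7 CPM. BGLU18, the glucosidase of leaf ER bodies that wounding induces, had 29.3, 29.6 and 15.9 CPM in WT 1, WT 2 and WT 3. NAI2, which shapes the ER body, had 1892, 2009 and 2121 CPM, and NAI1, the bHLH factor that switches the system on, had 149, 177 and 180 CPM. The membrane proteins MEB1 and MEB2 had 209 ± 7.62 and 97.8 ± 8.26 CPM. The lectins JAL22, JAL33 and JAL34 averaged 2499 ± 244, 2734 ± 237 and 4080 ± 208 CPM (SD, n = 3 for all). JAL23 stayed near 1 CPM, with 0.985, 1.27 and 0.823 CPM. WT 1 was the lowest pool for 13 of the 17 list members with a mean of at least 5 CPM, against 28% of all genes tested. With TMM factors it was the lowest for 12, against 28.6%. The differences were small, with a median highest-over-lowest ratio of 1.16 against 1.17 over all 15811 such genes.

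In the cell wall class, class III peroxidases, which cross-link wall polymers, held 1.31 ± 0.0626% of the counts, and extensins with other proline-rich proteins 1.28 ± 0.0698% (SD, n = 3 each). By share of the counts PRXR1 was the first peroxidase with 2811, 2678 and 2640 CPM in WT 1, WT 2 and WT 3, followed by PRXCB with 1692, 1815 and 1659 CPM. EXT3, the extensin that forms the wall scaffold of dividing embryo cells, had 2244, 1853 and 2171 CPM, lowest in WT 2, and 29.2% of its exon bases lie under another gene. The extensin-like AT2G43150 had 1986, 1823 and 1828 CPM, and the arabinogalactan protein AGP31 had 1552, 1487 and 1470 CPM. GRP9 led this class by mean share of the counts, with 2335, 3073 and 2915 CPM in WT 1, WT 2 and WT 3. It also led by length with 5972 ± 772 TPM, against 2497 ± 106 TPM for PRXR1, 1906 ± 64.9 TPM for PRXCB, 2245 ± 135 TPM for AT2G43150 and 2131 ± 241 TPM for EXT3. Cellulose and hemicellulose genes, 140 in number, held 0.637 ± 0.0318%, and 34 expansins, which loosen walls during growth, held 0.0617 ± 0.00687%. Glycoside hydrolases of the wall held 0.668, 0.619 and 0.490% in WT 1, WT 2 and WT 3, the widest ratio (1.36) of any group drawn in the plot of shares by function.

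Transport was the most evenly divided class. By share of the counts its first 3 genes were water channels. TIP2 (AT3G26520), a channel of the vacuole membrane, had 2025, 2054 and 1826 CPM in WT 1, WT 2 and WT 3. The plasma membrane channels PIP2A, PIP1B and PIP1C averaged 1186 ± 105, 1080 ± 114 and 998 ± 83.5 CPM (SD, n = 3 each). HA2, the plasma membrane proton pump that powers root uptake, had 1097, 1006 and 1110 CPM, and AAC1, the mitochondrial ADP/ATP carrier, had 1079, 1022 and 1070 CPM. By length the vacuolar channel TIP2 stood at 2570 ± 149 TPM and HA2, whose transcript is much longer, at 488 ± 32.6 TPM. As groups, 37 aquaporins held 0.878 ± 0.0470% of the counts, 223 ion and metal transporters 0.729 ± 0.0232% and 83 ABC transporters 0.369 ± 0.0317%.

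By share of the counts a catalase gene stood first in the stress class. CAT3 (AT1G20620), whose product breaks down hydrogen peroxide, had 3383, 3150 and 2728 CPM in WT 1, WT 2 and WT 3. The chaperone HSC70-1 had 1477, 1425 and 1705 CPM, highest in WT 3. The dehydrin AT1G54410, a protein of drying cells, had 1390, 1594 and 1351 CPM, RD19, a cysteine protease of the drought response, 1379, 1460 and 1279 CPM, and GSTF9 1287, 1491 and 1221 CPM. DI19, a drought-induced zinc finger gene, averaged 1070 ± 49.7 CPM. Per length the dehydrin was ahead with 2186 ± 166 TPM, against 1820 ± 166 TPM for GSTF9 and 1537 ± 168 TPM for CAT3. Glutathione and redox genes held 1.76 ± 0.0820% of the counts and heat shock proteins with chaperones 1.22 ± 0.0383% (SD, n = 3 each).

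Barrier functions held the smallest share and had no gene among the 100 most abundant. The CASP-like gene AT4G15610 held the largest share of its counts, with 541, 636 and 502 CPM in WT 1, WT 2 and WT 3. UCC2, a uclacyanin, which is a small copper protein of the wall, had 631, 499 and 531 CPM. FACT, which joins caffeic acid to fatty alcohols, had 375, 369 and 338 CPM, and CYP86A1, a P450 that hydroxylates fatty acids for suberin, had 234.2, 211.1 and 222.5 CPM. The lipid transfer protein genes AT2G18370 and AT3G58550 averaged 289 ± 20.4 and 255 ± 14.6 CPM (SD, n = 3 each). Per length UCC2 was first of these genes with 760 ± 103 TPM, before AT3G58550 with 543 ± 24.8 TPM, AT2G18370 with 542 ± 35.2 TPM and AT4G15610 with 518 ± 56.3 TPM, and the last 3 differed by less than their summed SDs. The 17 genes of suberin synthesis and export together held 0.139, 0.133 and 0.142% of the counts in WT 1, WT 2 and WT 3.

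Some genes could not be seen in these counts at all. Of 561 protein-coding genes with more than 90% of their annotated exon bases under the exons of another gene, 520 (92.7%) had no count in any pool, against 3514 of 19818 (17.7%) with no such overlap. A zero of such a gene was not read as a level. The 520 genes included 17 of the cell wall class, 13 of defence, 9 of transport, 7 of stress and 7 of barrier functions. The metallothionein gene MT1A had no count, while AT1G07590, which covers it, had 1148, 1429 and 1176 CPM in WT 1, WT 2 and WT 3 and ranked among the 100 most abundant genes. LHB1B2, a light-harvesting gene, was likewise fully covered and at 0.

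Close gene copies were a second limit. Of genes with no exon overlap, 143 shared more than 90% of the 50-base stretches of their transcript with another gene, and 101 of these (70.6%) had no count in any pool. Among the 100 most abundant this touched AT3G41768, a gene for 18S ribosomal RNA with 94.3% of its stretches shared. NSP1 shared 29.2% with NSP4 and CAB1 14.9% with CAB2, while the 24 other genes of the first 25 shared at most 7.18%, the value of the repetitive UBQ10.

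The 3 pools resembled each other closely. Over the 15811 genes with a mean of at least 5 CPM, the median ratio of the highest to the lowest pool was 1.17 and 60.5% stayed below 1.2. The median coefficient of variation was 8%, against 3.61% from counting error alone. Rank correlations across genes ran between 0.990 and 0.993 for the 3 pairs of pools, which is a description, since genes are not independent replicates. Counts differed between every pair by far more than sampling noise (chi-square per degree of freedom of at least 11.98), so no library was a copy of another. Genes that differed at least 2-fold between the highest and the lowest pool, called variable from here on, numbered 126 of 15811, which is 0.797%.

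**Figure D4:**
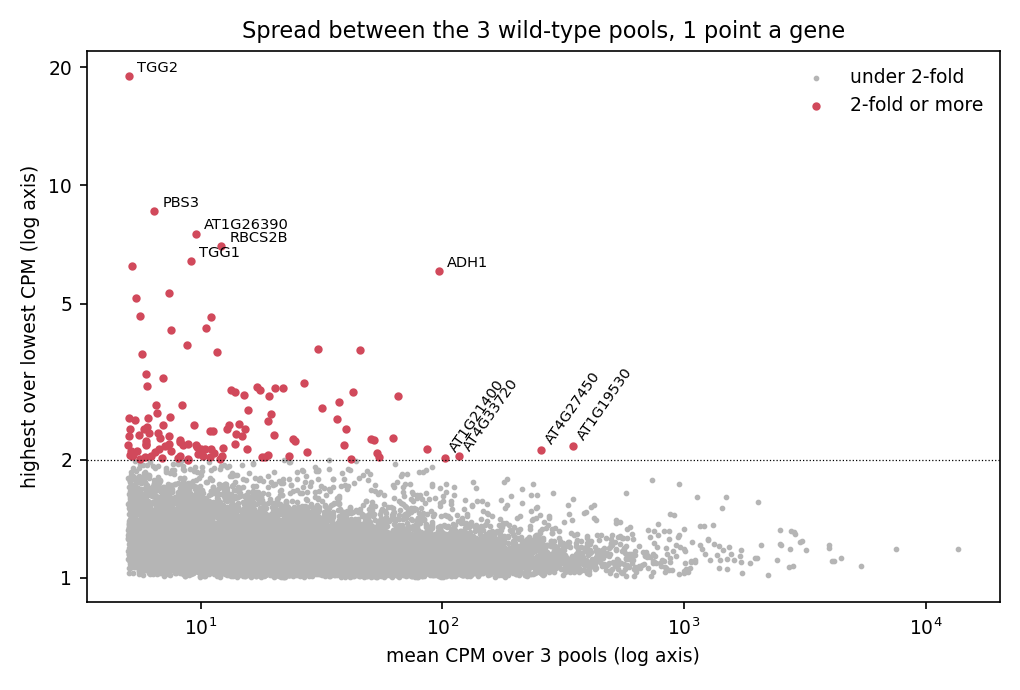
Ratio of the highest to the lowest CPM among the 3 wild-type pools (y axis, log scale) against mean CPM (x axis, log scale) for the 15811 genes with a mean of at least 5 CPM; red points are the 126 genes at 2-fold or more. Ratios of 2 or more grow rarer with abundance, TGG2 reaches 19.0, and the 4 red genes above 100 CPM lie just over the line.

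Differences of 2-fold or more were found mainly among scarce transcripts. Between 5 and 10 CPM, 62 of 2548 genes were variable (2.43%), and between 20 and 50 CPM 17 of 4931 (0.345%). Above 100 CPM only 4 of 2061 genes were variable, and none of the 188 genes above 500 CPM. The median coefficient of variation did not fall all the way. It was 12.4% between 5 and 10 CPM (7.08% from counting error), 7.37% between 20 and 50 CPM (3.39%), 5.91% between 200 and 500 CPM (1.16%), 6.7% between 500 and 1000 CPM (0.754%) and 8.35% above 1000 CPM (0.479%). The 4 were AT1G19530, AT4G27450, AT4G33720 and AT1G21400. AT1G19530 had 354, 467 and 216 CPM in WT 1, WT 2 and WT 3, and AT4G27450, of the aluminium-induced family, had 241, 355 and 168 CPM. AT4G33720, a pathogenesis-related CAP family gene, had 132, 146 and 71.6 CPM, and AT1G21400, a thiamin diphosphate enzyme gene, had 108, 133 and 65.6 CPM. All 4 were highest in WT 2 and lowest in WT 3. The next ratio above 100 CPM was that of LHCA3, a light-harvesting gene of photosystem I, at 1.785 with 207.5, 223.6 and 125.3 CPM. The threshold is a line through a continuum. PSK2, a phytosulfokine precursor, was just inside at 2.002-fold and AT1G63295 at 2.001-fold, with AT5G44572 just outside at 1.996-fold and DIN11 at 1.995-fold.

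At the other end, the 5 steadiest genes above 100 CPM varied less than counting error predicts. B73 (AT5G20990, molybdenum cofactor synthesis) had 101, 100.4 and 101 CPM in WT 1, WT 2 and WT 3, a coefficient of variation of 0.254% against a counting error of 1.89%. SGT1B, a co-chaperone of immune receptors, LINC1, a nuclear lamina protein, the ribosomal protein gene AT5G20290 and the splicing factor RS40 had coefficients of variation of 0.311 to 0.463%. They were chosen for this steadiness out of 2061 genes, so the values describe them and support nothing else.

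By function, 17 of 513 cell wall genes (3.31%), 16 of 473 stress genes (3.38%), 13 of 379 defence genes (3.43%) and 3 of 102 barrier genes (2.94%) were variable, against 0.797% of all genes. The 3 barrier genes were all among 40 lipid transfer protein genes. None of the 16 suberin, 29 Casparian strip and CASP-like, or 17 cutin and wax genes was variable. Transport had 4 of 662 (0.604%) and genes in no class 73 of 13682 (0.534%). These are counts of genes that share libraries, given without a test. The classes, and the gene lists below, were chosen with earlier results of these data known. Their shares beside that of all genes therefore describe the members and support nothing else. WT 3 was the lowest pool for 59 of the 126 variable genes and the highest for 52. WT 2 was the highest for 48 and WT 1 for 26. Over all 15811 genes WT 3 was the lowest for 28.7% and the highest for 41.7%. With edgeR's TMM factors WT 3 was the highest for 34.5% and the lowest for 34.9% of all genes, and the lowest for 53.2% and the highest for 33.9% of 124 variable genes.

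Among genes with a mean of at least 5 CPM, the widest difference belonged to TGG2, a myrosinase. This thioglucosidase splits glucosinolates in guard cells and myrosin cells of the shoot. TGG2 had 11.7, 2.72 and 0.617 CPM in WT 1, WT 2 and WT 3, and the highest pool was 19.0-fold the lowest (95% counting interval 10.8 to 37.0). Its mean of 5.03 CPM was just over the floor and passed it only through WT 1. Scarcer genes under the floor had wider ratios, such as 72.4 for HSP23.6-MITO and 22.7 for ATHSP22.0. Its neighbour TGG1 had 13.85, 11.32 and 2.16 CPM. Both are shoot myrosinases, unlike the ER body glucosidases above. The shoot and chloroplast genes RBCS2B, RBCS3B and LOX2 took the same order of pools as TGG2. RBCS2B, a Rubisco small subunit gene, had 20.9, 12.4 and 2.98 CPM in WT 1, WT 2 and WT 3, and RBCS3B had 61.77, 45.02 and 20.72 CPM. LOX2, the chloroplast lipoxygenase of jasmonate synthesis, had 7.46, 7.26 and 1.44 CPM, and without WT 1 its mean was under 5 CPM. PMDH2, a peroxisomal malate dehydrogenase, had 9.81, 8.08 and 3.03 CPM. WT 3 was the lowest pool for each of these genes. The 5 green shoot markers, none at 0, were also lowest in WT 3, with sums of 2200, 2314 and 1459 CPM, and their part in the result was not tested. CAB1 gave most of each sum, with 1648, 1756 and 1091 CPM. The markers RBCS1A, CAB1 and CAB2 also belong to the light-harvesting and Rubisco list below, so the 2 sets are not separate observations.

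The windows before the starts of the 2 myrosinase genes are shown in the same way, since TGG2 had the widest ratio at 5 CPM or more and TGG1 is its neighbour.
TGG2: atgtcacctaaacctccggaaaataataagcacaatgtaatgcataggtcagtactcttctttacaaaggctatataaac
TGG1: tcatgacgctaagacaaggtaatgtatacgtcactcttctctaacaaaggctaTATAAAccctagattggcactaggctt
They lie at chr5:9072628-9072707 (plus strand) for TGG2 and chr5:9082385-9082464 (minus strand) for TGG1. The same letters stand in TGG2 nearer to its annotated end, outside the window searched, so no capitals mark them. TATAAA stood in the searched place before 15 of 125 variable protein-coding genes (12%), against 8.03% of those with at least 5 CPM.

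The light-harvesting and Rubisco small subunit genes as a whole were lowest in WT 3. All 19 of the list with a mean of at least 5 CPM, of 23 listed, had their lowest value there, against 28.7% of all genes tested, and 15 had their highest in WT 2, against 29.4%. The 23 genes summed to 4217, 4449 and 2801 CPM in WT 1, WT 2 and WT 3. CAB1, a light-harvesting protein of photosystem II, had 1648, 1756 and 1091 CPM, and RBCS1A had 458, 468 and 308 CPM. In all, 4 of the 19 were variable (RBCS2B, RBCS3B, CAB2 and LHB1B1), against 0.797% of all genes, and the median ratio was 1.63, against 1.17. With TMM factors WT 3 was again the lowest for all 19, against 34.9% of all genes. LHB1B1 had 8.21, 14.3 and 3.65 CPM, with 13.7% of its 50-base stretches shared, and CAB2 had 15.5, 21.3 and 8.90 CPM, with 20.5% shared. RBCS2B and RBCS3B shared 21.4 and 18.3% of theirs. These levels are those of roots grown in constant light, and whether the roots were green was not recorded in the labels.

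Low-oxygen genes were lowest in WT 3 too. ADH1, the alcohol dehydrogenase of fermentation, had 64.5, 193 and 31.8 CPM in WT 1, WT 2 and WT 3, so WT 2 was 6.06-fold WT 3 (95% counting interval 5.58 to 6.60). Its exons overlap those of AT1G77122. HB1, a haemoglobin that scavenges nitric oxide when oxygen is low, had 22.95, 28.56 and 9.359 CPM. PDC1, a pyruvate decarboxylase, had 13.44, 17.61 and 7.354 CPM, SUS4, a sucrose synthase, 46.7, 48.4 and 22.3 CPM, and PCO1, an oxygen-sensing cysteine oxidase, 21.81, 23.61 and 11.47 CPM. WT 3 was the lowest pool for all 10 list members with at least 5 CPM, against 28.7% of all genes tested, and 5 of the 10 were variable, against 0.797% of all. The median ratio was 2.02, against 1.17 over all genes. As the list was chosen with earlier results of these data known, these values only describe its members. With TMM factors WT 3 was again the lowest for all 10, against 34.9% of all genes, and 6 were variable. HRA1, the gene that restrains the response, was nearly level with 15.7, 15.1 and 13.2 CPM, so the members varied by different amounts.

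Small heat shock proteins were high in WT 2 alone for most of the variable members. HSP17.6II had 2.11, 11.5 and 1.85 CPM in WT 1, WT 2 and WT 3, HSP17.6A 4.81, 20.9 and 5.86 CPM, and AT1G53540 5.16, 14.1 and 3.29 CPM. AT1G07400 had 3.342, 11.02 and 3.497 CPM. Of 23 list members with at least 5 CPM, of 46 listed, 7 were variable, against 0.797% of all genes. WT 2 was the highest for 14 of the 23, against 29.4% of all genes, and with TMM factors for 18, against 36.6%. HSP17.6II and AT1G07400 were under 5 CPM in WT 1 and WT 3, so they passed the floor only through WT 2. AT1G53540 also needed WT 2 to pass, since its mean over WT 1 and WT 3 was under 5 CPM. The part of these genes in the counts follows in part from that floor. HSP18.2 had 6.99, 16.6 and 9.15 CPM and AT2G29500 9.48, 23.4 and 10.4 CPM, while AT5G51440 was high in both WT 2 and WT 3, with 3.01, 8.30 and 8.23 CPM. Small heat shock proteins bind unfolding proteins. The sum over the list moved little, with 637, 733 and 663 CPM in WT 1, WT 2 and WT 3. Its largest parts came from members under 2-fold, such as AT5G02480 with 188, 169 and 174 CPM and AT4G02450 with 89.7, 89.4 and 96.9 CPM. The sum therefore does not describe the variable members. The list also holds genes such as BOB1, SLT1 and RTM2, so its counts are not those of small heat shock proteins alone.

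**Figure D5:**
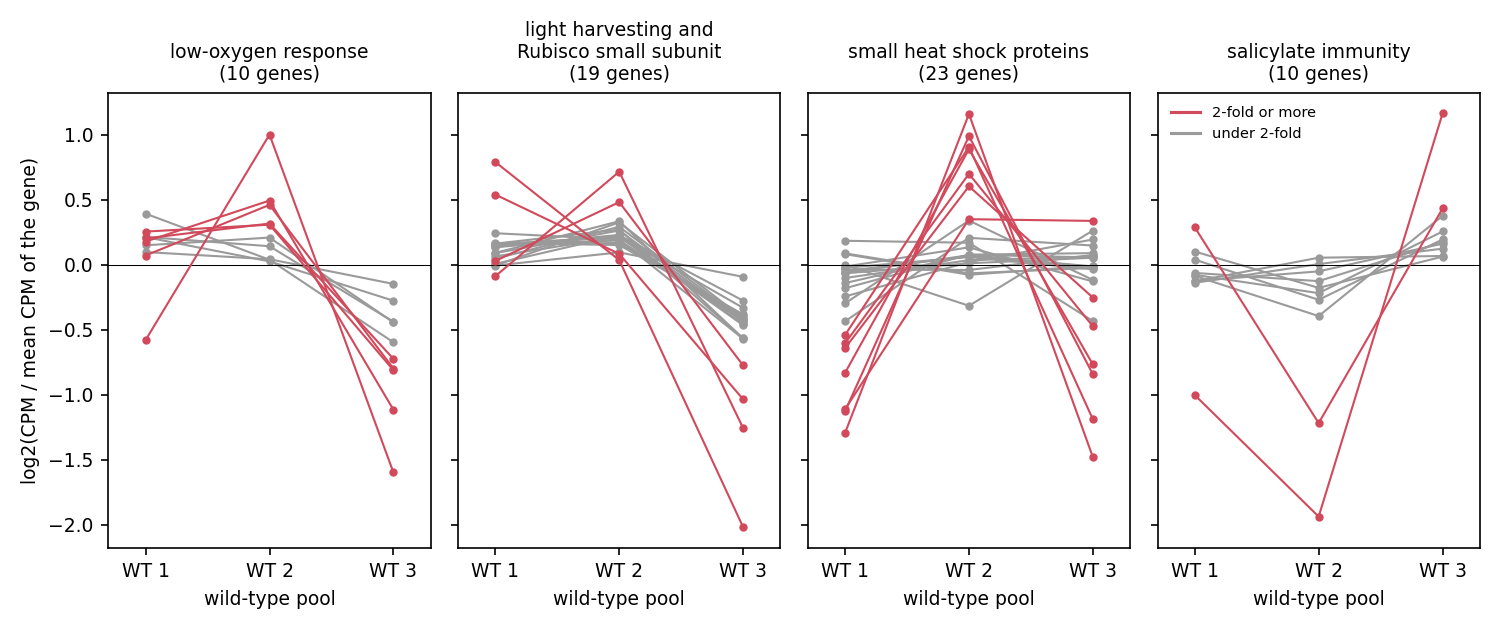
Log2 of the CPM over the gene's mean CPM (y axis) in WT 1, WT 2 and WT 3 (x axis) for the members of 4 lists with a mean of at least 5 CPM, 1 line a gene, red where the highest and lowest pool differ at least 2-fold. The 10 low-oxygen and 19 light-harvesting lines all end lowest in WT 3, 14 of 23 small heat shock lines are highest in WT 2, and 9 of 10 salicylate lines are highest in WT 3.

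Most salicylate immunity genes with a mean of at least 5 CPM were highest in WT 3 instead. PBS3, the enzyme that conjugates glutamate in salicylate synthesis, had 3.21, 1.68 and 14.4 CPM in WT 1, WT 2 and WT 3, an 8.59-fold range (95% counting interval 6.26 to 12.1). It was under 5 CPM in WT 1 and WT 2, so it passed the floor of 5 CPM only through WT 3. Its part in the counts below follows in part from that floor. CBP60G, a factor that switches on salicylate synthesis, had 32.61, 11.47 and 36.05 CPM. WT 3 was the highest pool for 9 of the 10 list members with at least 5 CPM, against 41.7% of all genes tested, and with TMM factors for 8, against 34.5%. WT 2 was the lowest for 7, against 43.3% of all genes by CPM and 36.5% with TMM factors. Of the 10, PBS3 and CBP60G were variable, against 0.797% of all genes. The list has 16 members. Of those under 5 CPM, FMO1 and SARD1 were also highest in WT 3, but PR1, PR5 and ALD1 in WT 1 and PR2 in WT 2. The pathogenesis-related genes PR1, PR2 and PR5 had means of only 0.112, 0.214 and 0.0258 CPM. ICS1, the isochorismate synthase at the head of the pathway, had 12, 13.26 and 14.4 CPM, and WRKY70, a factor of the response, 33.0, 26.7 and 45.5 CPM. The median ratio of the list was 1.31, against 1.17 over all genes. AT1G26390, a berberine bridge enzyme family gene, took the order of PBS3 with 5.061, 2.755 and 20.77 CPM, and so did EXLA3, an expansin-like gene, with WT 3 highest at 8.789, 7.745 and 23.35 CPM. CYP71A12, a P450 of indole defence compounds, had 6.30, 1.86 and 8.64 CPM, and DIC2, a mitochondrial dicarboxylate carrier, 47.9, 31.9 and 71.8 CPM. Without WT 3, AT1G26390 and CYP71A12 each had a mean under 5 CPM, so both needed that pool to pass the floor.

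Jasmonate genes did not share 1 order. JRG21, a jasmonate-regulated oxygenase gene, had 5.14, 14.2 and 2.67 CPM in WT 1, WT 2 and WT 3, and JAZ5, a repressor of the response, 5.06, 4.06 and 10.7 CPM. With LOX2 these were the 3 variable genes of 16 with at least 5 CPM, against 0.797% of all genes. Without its highest pool each of the 3 had a mean under 5 CPM. Their part in this count therefore follows in part from the floor. The vegetative storage proteins VSP1 and VSP2 had 311, 409 and 458 CPM and 889, 1037 and 856 CPM. The other 13 ranged in ratio between 1.07 for AOC4, an allene oxide cyclase of jasmonate synthesis, and 1.67 for the repressor gene JAZ7, which had 6.239, 8.452 and 10.44 CPM. Its relative JAZ1 had 164, 164 and 177 CPM and OPR3, an oxophytodienoate reductase, 56.87, 65.05 and 63.56 CPM. With a mean under 5 CPM, the cyclase gene AOC2 had 5.099, 3.798 and 1.646 CPM, a ratio of 3.1.

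Among the variable barrier and wall genes, the lipid transfer type genes EARLI1 and AZI1, neighbours on chromosome 4 of which AZI1 takes part in systemic defence priming, varied alike. EARLI1 had 30.1, 48.5 and 12.7 CPM in WT 1, WT 2 and WT 3, and AZI1 had 45.9, 71.6 and 18.9 CPM. The exons of EARLI1 overlap those of AT4G12485. The peroxidase AT1G49570 had 10.68, 18.25 and 3.96 CPM, also highest in WT 2 and lowest in WT 3. PIP2E, an aquaporin, had 16.6, 13.9 and 4.42 CPM, the widest ratio of the transport class at 3.76, while the abundant channels TIP2 and PIP2A kept within 1.2-fold. ICL, the isocitrate lyase of the glyoxylate cycle, had 18.04, 25.02 and 8.176 CPM, AT2G39980, an acyltransferase family gene, 6.05, 9.01 and 2.93 CPM, and RLM3, a TIR-type immune gene, 8.79, 5.92 and 2.37 CPM. Without its highest pool, AT2G39980 as well as RLM3 had a mean under 5 CPM.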

How the data were processed

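RNA sequencing counts of 3 wild-type pools were used, and the 3 libraries of the other genotype in the series were not used here. The deposited files hold raw, unscaled counts in whole numbers per gene ID. The build TAIR10 and the tools HISAT, featureCounts, Trim Galore and DESeq2 are named, per the submitters' processing notes. Not given in the sources used here are tool versions, strandedness and how multi-mapped reads were handled. Counts of overlapping, antisense or near-identical genes are therefore uncertain. The labels call the pools biological replicates.

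From the counts, CPM was computed on library totals and TPM from the union of annotated exons. Names, positions and sequences came from the RefSeq annotation and genome of TAIR10.1, in which 285 IDs, all of organelles, had no entry. A count of 0 allows up to 3 counts, and exact 95% (Clopper-Pearson) intervals of ratios cover counting error only. Variable genes differ at least 2-fold between pools at a mean of at least 5 CPM. No test was made, as there is 1 group. Scaling used edgeR 4.0.16 (TMM) and DESeq2 1.42.0 (size factors) in R 4.3.3, and edgeR's biological coefficient of variation from an intercept-only model was 11.2% over 19927 genes. The variation step was checked on simulated counts. Exon overlap and 50-base stretches shared on either strand were computed for all annotated genes.

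The members, classes and lists were chosen with earlier results of these data known. Genes named are the 25 with the highest mean CPM, the 10 with the highest TPM, the first 6 of each class, the 24 largest ratios, the 5 largest and 5 steadiest above 100 CPM, the 2 largest ratios of each class and the marker genes. Other list members, genes in the pairs on one chromosome stretch, and those at the threshold or under another gene were chosen after their values were seen. Alternatives were TMM and size factors, removal of organelle genes, thinning to 19446419 counts, TPM, other floors and thresholds, and each pool left out.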

Additional observations from a re-analysis of the deposited data

How the results depend on the processing

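The order of the classes and the first places of the hierarchy changed little. The 25 most abundant genes were the same under both scalings, without organelle genes and after thinning, and 20 of them stayed by TPM. Leaving out 1 pool kept 24 to 25 of the 25 and 97 to 99 of the 100. By TPM, the first 10, 100 and 1000 genes held 6.64, 19.3 and 47.6%, 1150 genes held 50%, and the shares were 8.84% for defence, 5.92% for cell wall, 5.25% for stress, 4.07% for transport and 0.811% for barrier functions, so stress and transport changed places. Without genes matching more than 1 class, barrier functions held 0.603%. The number of variable genes rested on its definition. It was 630 at a mean of at least 1 CPM, 29 at 20 CPM and 5050 with no filter. It was 926 at 1.5-fold, 27 at 3-fold and 77 by a coefficient of variation of at least 40%. It was 124 with TMM factors, of which 115 were among the 126, and 136 after thinning, of which 117 were. Leaving out 1 pool gave 26 to 87, with 26 without WT 3, 63 without WT 2 and 87 without WT 1, each time from the 2 pools left. The class shares, leaving out 1 pool, ranged over 7.72 to 8.02% for defence, 5.64 to 5.81% for cell wall, 4.85 to 4.93% for transport, 4.47 to 4.62% for stress and 0.620 to 0.633% for barrier functions. The cause of these shifts was not tested beyond the definitions themselves. Depth limits the scarce genes, since 5 CPM stands for 97.2 counts in WT 3 and 259 in WT 1. No paired analysis was possible because 1 group was used and the replicate numbers pair nothing within it.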
